A study of Rattus norvegicus with 36 samples.

Results

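The genes described here are 77 of the 31546 genes counted in the nucleus accumbens of Sprague-Dawley rats. They were lower after a single day of cocaine and after repeated cocaine, and by about the same amount in both. They were found by a rule applied to read counts divided by median-of-ratios size factors, referred to here as normalised counts. A gene had to have a mean of at least 40 over the 9 pools, all 6 cocaine pools below all 3 saline pools, a log2 ratio of at most -0.6 against saline in both cocaine groups, and less than 0.3 on the log2 scale between the cocaine groups. The rule left out 9 genes of the mitochondrial genome. Because it used all 3 contrasts, the differences between the groups are given as a description and carry no test.

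The rats were 8-week-old Sprague-Dawley males given intraperitoneal injections over 5 days, and the tissue was taken 24 h after the last injection. Sal–Sal rats received 15 saline injections. Coc–Coc rats received 15 cocaine injections of 20 mg/kg, and Sal–Coc rats received cocaine only in the last 3 injections. For Sal–Coc rats the labels count 13 saline and 3 cocaine injections, a total above the 15 of the other groups. The labels also call the Coc–Coc rats vulnerable in one field and tolerant in another. Each group had 3 pools, each of 2 rats per the study's methods although the labels speak of a rat, and each pool was sequenced in 4 technical replicates that were summed here. All groups were of the same strain. Per the study's methods every group was handled and injected on the same schedule, which the labels' count for Sal–Coc does not match. In bulk tissue of this kind, fewer cells of a type and less RNA per cell cannot be told apart.

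The nucleus accumbens is the ventral part of the striatum, made up largely of GABAergic projection neurons that receive dopamine from the midbrain. Cocaine blocks the dopamine transporter and so raises extracellular dopamine, and dopamine acting through its receptors sets off immediate early transcription factors such as those of the AP-1 and Egr families. Repeated exposure is known to change this response. The 77 genes cut across several functions, among them transcriptional regulators, RNA-binding proteins, lysosomal and mitochondrial proteins and proteins of the neuronal membrane.

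Promoter sequence is shown first for 6 of the genes. Bloc1s3, Trnp1, Hnrnpa0 and Ier5l were among those with the lowest ratios, Jund is the only member from the AP-1 list, and Basp1 is an abundant neuronal gene. They were chosen after their values were seen. Each sequence is the 250 bases before the annotated start, read 5′ to 3′ on the gene's strand, from RefSeq on the GRCr8 assembly. Capitals mark the GC box, GGGCGG or its complement CCGCCC, which was searched on both strands with overlaps counted. The windows are chr1:88286239-88286488 on the minus strand for Bloc1s3, chr5:150997134-150997383 on the minus strand for Trnp1, chr17:6512879-6513128 on the plus strand for Hnrnpa0, chr3:34143458-34143707 on the minus strand for Ier5l, chr16:18769772-18770021 on the minus strand for Jund and chr2:77594298-77594547 on the minus strand for Basp1.
Bloc1s3: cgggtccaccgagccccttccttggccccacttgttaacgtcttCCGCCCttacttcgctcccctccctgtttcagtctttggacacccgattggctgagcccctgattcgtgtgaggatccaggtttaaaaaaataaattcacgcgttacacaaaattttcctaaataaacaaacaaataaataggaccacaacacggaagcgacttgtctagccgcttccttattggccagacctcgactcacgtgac
Trnp1: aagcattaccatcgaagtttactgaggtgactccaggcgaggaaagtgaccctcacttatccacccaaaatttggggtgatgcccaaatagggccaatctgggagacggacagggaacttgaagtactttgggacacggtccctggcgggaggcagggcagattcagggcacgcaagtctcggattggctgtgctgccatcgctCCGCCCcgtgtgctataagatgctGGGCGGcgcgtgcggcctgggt
Hnrnpa0: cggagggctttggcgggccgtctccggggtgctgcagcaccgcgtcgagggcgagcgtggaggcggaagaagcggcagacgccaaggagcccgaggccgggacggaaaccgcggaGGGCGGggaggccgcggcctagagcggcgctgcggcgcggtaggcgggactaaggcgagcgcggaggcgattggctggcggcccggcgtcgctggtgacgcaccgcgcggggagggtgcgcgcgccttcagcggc
Ier5l: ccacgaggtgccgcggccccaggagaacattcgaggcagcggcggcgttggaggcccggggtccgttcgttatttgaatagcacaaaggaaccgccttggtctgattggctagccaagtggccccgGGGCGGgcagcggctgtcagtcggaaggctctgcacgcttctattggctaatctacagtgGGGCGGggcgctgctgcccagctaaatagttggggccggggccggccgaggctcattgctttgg
Jund: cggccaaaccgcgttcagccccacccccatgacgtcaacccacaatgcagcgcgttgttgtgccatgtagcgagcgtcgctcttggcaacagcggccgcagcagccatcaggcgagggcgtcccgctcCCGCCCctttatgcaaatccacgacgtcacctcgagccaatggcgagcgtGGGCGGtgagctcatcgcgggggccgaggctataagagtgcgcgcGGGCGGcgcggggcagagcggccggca
Basp1: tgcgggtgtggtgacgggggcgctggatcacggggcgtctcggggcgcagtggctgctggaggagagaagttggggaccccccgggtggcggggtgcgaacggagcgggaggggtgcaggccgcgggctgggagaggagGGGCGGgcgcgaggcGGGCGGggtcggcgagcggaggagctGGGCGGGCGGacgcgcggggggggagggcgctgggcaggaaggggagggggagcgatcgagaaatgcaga

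Every one of the 6 windows held a GC box, a common promoter element. It was present in 40.3% of the 19005 protein-coding promoters of the same length, in 33 of the 50 members' promoters in the table (66.0%), in 60.7% of the promoters found for other genes that the study listed and that were lower in both cocaine groups, and in 56.5% of those for listed genes that were higher in both. Since the 6 were chosen after their values were seen, nothing is read from their count. Basp1 had 4 matches, of which the last pair overlap, Jund had 3, Trnp1 and Ier5l had 2 each, and Bloc1s3 and Hnrnpa0 had 1 each. The windows ranged in GC content from 49.2% for Bloc1s3 to 77.2% for Hnrnpa0. The core of the cyclic AMP response element, TGACGT on either strand, was found in the window of Jund and in none of the other 5, and in 8.15% of all promoters. The E-box CACGTG was found only in the window of Bloc1s3 among the 6, and in 6.38% of all promoters. A comparison of promoters over the whole set was void, since only 50 of the 77 genes (64.9%) had a promoter in the table, below the 80% needed. The listed genes lower in both groups (70.5%) and higher in both (77.3%) also fell short. So did the genes that the mirrored rule found raised alike (62.7%), of whose promoters 47.0% held a GC box. Nothing is read from these shares.

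Of the 31546 genes, 13598 had a mean of at least 40 normalised counts. In 1420 of these (10.4%) all 6 cocaine pools lay below all 3 saline pools. The requirement of -0.6 in both ratios left 98, and the requirement of similar cocaine groups left 77. All of the 21 genes lost at that last step were higher in Coc–Coc than in Sal–Coc. The same rule mirrored found 292 genes raised alike in both cocaine groups. The plot of the ratios for both cocaine groups shows the 77 in the lower left corner.

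**Figure D1:**
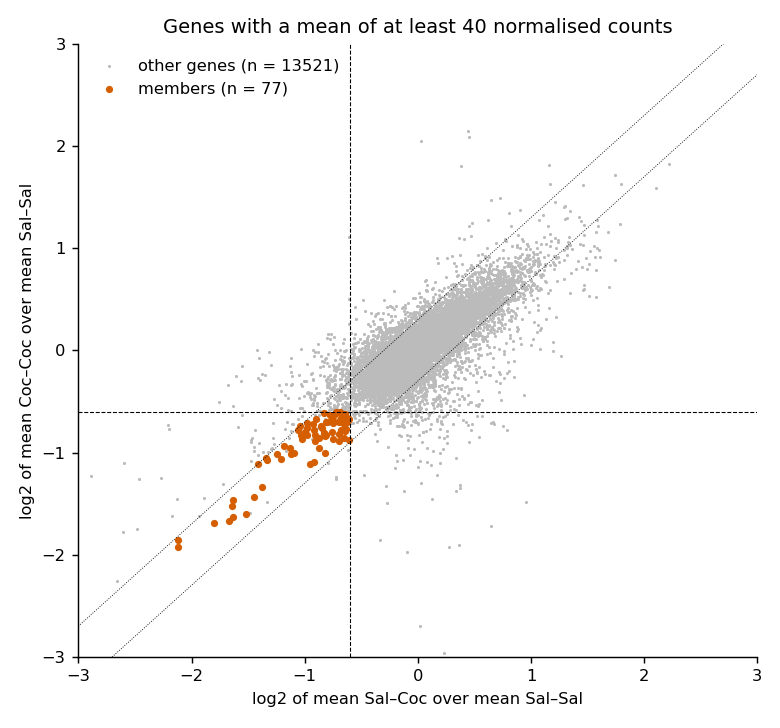
Log2 of the mean of the Sal–Coc pools over the mean of the Sal–Sal pools (horizontal axis) against the same ratio for Coc–Coc (vertical axis), with 1 point for each gene with a mean of at least 40 normalised counts. The 77 members are in orange and 13521 other genes in grey, dashed lines mark -0.6, dotted lines mark a difference of 0.3 between the cocaine groups, and 3 genes lie outside the axes.

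The members' median log2 ratio was -0.85 in Sal–Coc, from -2.12 to -0.61, and -0.81 in Coc–Coc, from -1.93 to -0.60. Over all genes with a mean of at least 40 both medians were -0.02. In 23 members the Sal–Coc mean was under 50% of the Sal–Sal mean, in 20 the Coc–Coc mean was, and in 17 both were. Between the cocaine groups the median log2 ratio of Coc–Coc over Sal–Coc was 0.08, from -0.27 to 0.29. The Sal–Coc mean was the lower in 54 members and the Coc–Coc mean in 23. The cocaine pools themselves separated by group in 2 members, and in 17.8% of the 13598 genes with a mean of at least 40. The rule kept only genes whose cocaine groups differed by less than 0.3, so nothing is read from this count.

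Most members were counted at low to moderate depth. Their mean over the 9 pools ran from 43.4 to 7325 normalised counts with a median of 232, against a median of 1100 for all genes with a mean of at least 40. A mean under 100 was found in 20 members and a mean of at least 1000 in 10. The lowest saline pool lay above the highest cocaine pool by a median factor of 1.27, from 1.01 to 2.0, with 11 members over 1.5 and 7 under 1.1. The coefficient of variation among pools had a median of 11.2% after saline, 14.7% after 3 cocaine injections and 18.7% after 15, against 9.53%, 9.13% and 7.16% for all genes with a mean of at least 40.

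The pools of a group did not lie at one level. Relative to the Sal–Sal mean, the median member was at 107%, 101% and 91.2% in Sal–Sal pools 1 to 3. After 3 cocaine injections it was at 50.4%, 52.7% and 57.4%, and after 15 at 66.5%, 52.3% and 49.3%. Coc–Coc pool 1 stood apart from its group, with the highest value of the group in 65 of 77 members, and Coc–Coc pool 3 had the lowest in 48. Among the saline pools, pool 1 was highest in 45 members and pool 3 lowest in 48. The share of counts on the 9 mitochondrial genes was 16.5%, 12.1% and 13.3% after saline, 9.11%, 11.8% and 13.1% after 3 cocaine injections and 15.5%, 11.6% and 12.4% after 15. In every group the pool with the highest share of these genes was also the pool with the highest median of the members. These were Sal–Sal pool 1, Sal–Coc pool 3 and Coc–Coc pool 1. The other pools kept this order in Sal–Coc only. In Sal–Sal and in Coc–Coc, pool 3 had a higher share than pool 2 and a lower median. The part of this share in the result was not tested. Without Coc–Coc pool 1 the rule found 118 genes, 61 of them among the 77, and without Sal–Sal pool 3 it found 120, 70 of them among the 77.

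**Figure D2:**
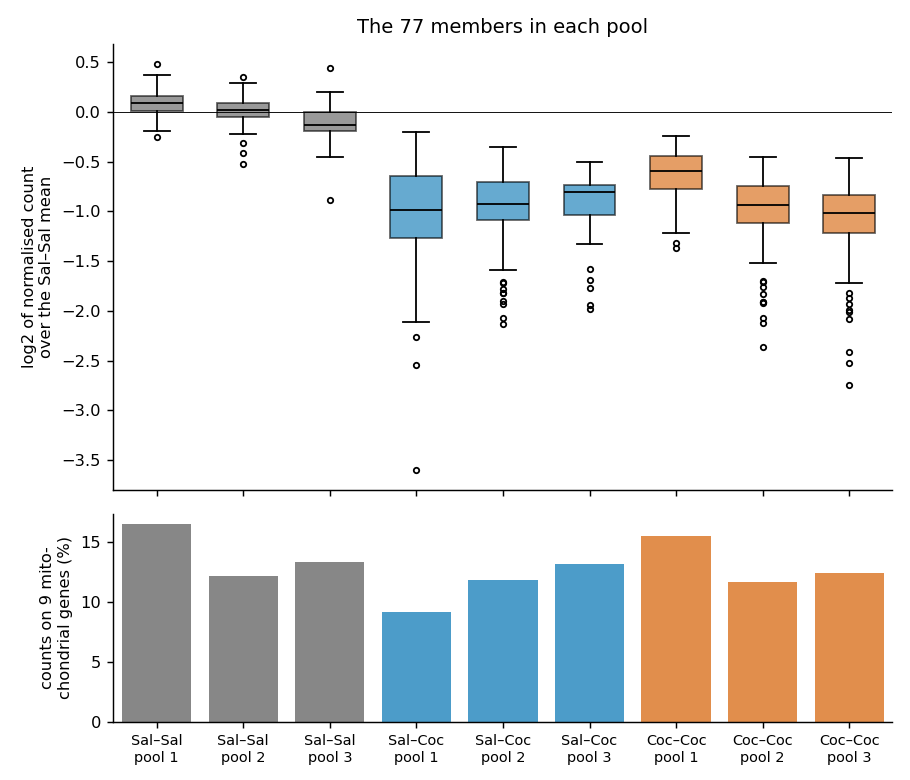
Upper panel, log2 of each member's normalised count over its own Sal–Sal mean in each of the 9 pools (box, quartiles, line, median, whiskers, 1.5 times the interquartile range, circles, members beyond them). Lower panel, percentage of each pool's counts on 9 mitochondrial genes, which was 15.5% in Coc–Coc pool 1, the pool with the highest median of its group.

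The total per pool ran from 36372166 to 42449841 counts, with 18752 to 19528 genes detected. Among the 4 technical replicates of a pool, the members varied about as far as counting error alone gives, with chi-square values of 0.817 to 1.14 per degree of freedom. The replicates are pools of different animals, with 3 per group. The p-values set differences between groups against the spread between these pools, which is not the spread between single rats if each pool held 2. The labelled tissue could not be checked against its defining markers, because names could be assigned only to genes in the study's own lists of changed genes and none of 10 striatal projection neuron markers was among them. Of 68 markers in 13 cell type lists only 4 had an identifier. Hba-a2, a red blood cell globin, had an edgeR log2 fold change against Sal–Sal of 0.47 in Sal–Coc (adjusted p = 0.537) and of 2.11 in Coc–Coc (adjusted p = 0.0276), Pdgfrb of mural cells had 0.54 (adjusted p = 0.0105) and 0.57 (adjusted p = 0.0183), Flt1 of endothelial cells had 0.54 (adjusted p = 0.0433) and 0.40 (adjusted p = 0.121), and Pvalb of interneurons had 0.21 (adjusted p = 0.375) and -0.54 (adjusted p = 0.0543). Their part in the members' values was not tested.

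Across all 15641 genes tested by the edgeR quasi-likelihood F test (Benjamini-Hochberg adjusted p under 0.05), 5.86% were called lower in Sal–Coc than in Sal–Sal and 3.75% in Coc–Coc than in Sal–Sal. In either direction 16.4% and 10.9% were called, and 33.8% and 30.1% had an unadjusted p under 0.05. Of the 77 members 68 were called lower in Sal–Coc, 61 in Coc–Coc, 59 in both and 7 in neither, and since the rule used these contrasts nothing is read from the counts. The calls depended on single pools, over all genes as well as over the members. In Coc–Coc against Sal–Sal, where 1702 genes were called in either direction with all pools, leaving out Coc–Coc pool 3 left 0 members and 0 genes in all. Without Coc–Coc pool 2 it was 2 members and 174 genes, without Sal–Sal pool 1 it was 9 and 292, and without Sal–Sal pool 2 it was 33 and 984. In Sal–Coc against Sal–Sal, with 2572 genes called from all pools, 32 members and 982 genes were called without Sal–Sal pool 1, and 40 and 1203 without Sal–Coc pool 2. Between Coc–Coc and Sal–Coc 0 members were called, and 0% of all genes were. At an unadjusted p under 0.05 edgeR found 0 members and 9.29% of all genes in that contrast. DESeq2 and limma-voom called 0 members as well, with 153 and 0 called over all genes. The paper, which used DESeq, did report differentially expressed genes in this contrast. The rule kept only genes with a log2 difference under 0.3 here, so nothing is read from these counts of members.

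The members with a role known from the general literature, 45 of the 69 with a symbol, were grouped by hand after their values were seen. The largest group, transcription and chromatin, had 15 members whose median log2 ratio was -0.83 in Sal–Coc, and -0.81 for Coc–Coc. The 4 RNA-binding and RNA decay proteins had medians of -1.11 and -1.07. Proteins of mitochondria and metabolism numbered 8, with medians of -0.90 and -0.81, and 6 belonged to lysosomes, caveolae or the endoplasmic reticulum, with medians of -0.82 and -0.78. The 5 proteins of the neuronal membrane and its signalling had medians of -0.88 and -0.82. Secreted or extracellular proteins numbered 3, as did ubiquitin ligases and deubiquitinases, and 1 member acts in DNA repair. The values of single members follow in that order, each in normalised counts for pools 1, 2 and 3.

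Among the transcriptional regulators, Trnp1, a nuclear protein known for control of neural progenitor expansion, was at 430.2, 467 and 289.6 after saline, 67.8, 104 and 103 after 3 cocaine injections and 154, 105 and 68.8 after 15. Its log2 ratios were -2.12 and -1.86, and the lowest saline pool lay well above the highest cocaine pool. Jund, an AP-1 subunit that pairs with Fos proteins, was at 2724, 2656 and 2456 after saline, 1210.0, 1318 and 1321 after 3 cocaine injections and 1895, 1265 and 1135 after 15, with ratios of -1.03 and -0.87. The saline and Sal–Coc pools of Jund each lay close together and Coc–Coc pool 1 lay between them. Jund was found by the rule whichever pool was left out, which held for 17 of the 77 genes.

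Cebpa, a basic leucine zipper factor of the C/EBP family, gave 369.9, 309 and 305 after saline, 226, 203 and 197 after 3 cocaine injections and 217, 201 and 179 after 15. The cocaine groups of Cebpa overlapped, with ratios to saline of -0.65 and -0.72. Aes, now named Tle5, is a short member of the Groucho/TLE corepressor family and had the highest normalised count of all members, at 10958, 9383 and 8820.0 after saline, 5398, 5911 and 6403 after 3 cocaine injections and 8206, 5494 and 5353 after 15. Coc–Coc pool 1 came near the lowest saline pool for Aes, and its Coc–Coc ratio of -0.61 lay just inside the limit of the rule. Purg, a purine-rich element binding protein, was at 189, 172 and 165 after saline, 66.01, 93.2 and 108 after 3 cocaine injections and 113, 112 and 96.2 after 15, with Sal–Coc pool 1 the lowest.

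A pair of histones were members. The linker histone H1fx, now H1f10, was at 376, 405 and 304 after saline, 148, 231 and 169.7 after 3 cocaine injections and 237, 197 and 178 after 15. Hist3h2ba, a core histone of the H2B type, was at 376, 341 and 367 after saline, 181, 231 and 199 after 3 cocaine injections and 268, 217 and 224 after 15. As the rule required, neither histone's saline pools overlapped the cocaine pools. The cocaine groups overlapped each other in both, as in all but 2 members. Nupr1l, now Nupr2, a nuclear protein related to the stress protein Nupr1, was close to the count limit, at 76.5, 75.3 and 67.04 after saline, 35.8, 20.7 and 30.3 after 3 cocaine injections and 52.2, 25.4 and 26.4 after 15. Other transcriptional members with log2 ratios between -1.0 and -0.64 were Bmyc, the neuronal repressor Scrt1, the striatal zinc finger factor Zfp503, the nuclear receptor Nr2f6, the p300-binding proteins Cited4 and Eid2, and Msl3l2.

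Hnrnpa0, an RNA-binding protein that attaches to AU-rich elements, was at 1438, 1622 and 1138 after saline, 397, 396 and 557 after 3 cocaine injections and 744, 412 and 368 after 15, with ratios of -1.64 and -1.46. Exosc6, a core subunit of the RNA exosome that degrades RNA from its 3′ end, was at 115, 98.5 and 86.6 after saline, 25.7, 40.4 and 49.7 after 3 cocaine injections and 60.6, 30.8 and 27.4 after 15. For both RNA-processing genes Coc–Coc pool 1 was the highest of the 6 cocaine pools, with the other Coc–Coc pools among or below those of Sal–Coc. The RNA-binding protein Mex3d had ratios of -0.85 and -0.76, and Zcchc3 had -0.76 and -0.80.

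Bloc1s3 had the lowest mean of the ratios. It encodes a subunit of BLOC-1, a complex needed to make lysosome-related organelles, and was at 144, 185 and 107 after saline, 30.2, 33.1 and 36.8 after 3 cocaine injections and 58.5, 34.5 and 21.7 after 15. Its ratios of -2.12 and -1.93 sat on a wide gap between saline and cocaine pools, with the Sal–Coc pools close together and the Coc–Coc pools spread around them. Borcs6, a subunit of the related BORC complex that positions lysosomes, changed less, at 762, 778 and 722 after saline, 478, 492 and 449 after 3 cocaine injections and 538, 428 and 466 after 15.

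Prkcdbp, now Cavin3, a coat protein of caveolae, was at 313, 311 and 233 after saline, 164, 158 and 135 after 3 cocaine injections and 192, 143 and 127 after 15. Sdf2l1, a protein of the endoplasmic reticulum induced by unfolded proteins, was at 424, 361 and 382 after saline, 266, 238 and 202 after 3 cocaine injections and 227, 284 and 256 after 15. In Prkcdbp the lowest saline pool, pool 3, was far below the other saline pools and, as the rule required, above every cocaine pool. In Sdf2l1 the cocaine groups overlapped. Emc6, of the endoplasmic reticulum membrane protein complex, had ratios of -0.74 and -0.64.

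Cox8a, a nuclear-encoded subunit of cytochrome c oxidase, was at 6440.0, 5587 and 4977 after saline, 2180.0, 2921 and 3047 after 3 cocaine injections and 4363, 2822 and 2722 after 15. Coc–Coc pool 1 was the highest cocaine pool for Cox8a by a wide margin, and the gene was found by the rule in 5 of the 9 runs that left out a pool. Mff, which recruits the fission protein Drp1 to mitochondria, was at 633, 602 and 583 after saline, 357, 301 and 317 after 3 cocaine injections and 433, 349 and 360.2 after 15. The saline pools of Mff were tight, and all its Sal–Coc pools but pool 1 lay below the Coc–Coc pools.

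LOC103689982, annotated as lysophospholipid acyltransferase 7, was at 136, 112 and 117 after saline, 50.4, 28.98 and 35.7 after 3 cocaine injections and 60.6, 23.6 and 30.2 after 15, with ratios of -1.67 and -1.67. Spr, sepiapterin reductase, makes tetrahydrobiopterin, the cofactor for dopamine synthesis, and was at 142, 146 and 161 after saline, 91.7, 83.8 and 100.5 after 3 cocaine injections and 107, 62.6 and 72.6 after 15. Its lowest Coc–Coc pools lay below every Sal–Coc pool and Coc–Coc pool 1 above them. Endog, a mitochondrial nuclease, had ratios of -0.90 and -0.83, and Pgls, an enzyme of the pentose phosphate pathway, had -0.77 and -0.63.

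Basp1, an abundant protein of growth cones and presynaptic membranes, was at 2273, 2805 and 2395 after saline, 1417, 1224 and 1310.0 after 3 cocaine injections and 1563, 1061 and 884 after 15. Pcdh8, an activity-regulated protocadherin of synapses, was at 1800.0, 1945 and 1937 after saline, 1438, 993 and 1076 after 3 cocaine injections and 1168, 1060.0 and 988 after 15. Cdk5r2, which encodes the Cdk5 activator p39, was at 3245, 2807 and 2197 after saline, 959.8, 1428 and 1745 after 3 cocaine injections and 2143, 1268 and 1284 after 15. The 3 differed in how well the groups separated: the lowest saline pool exceeded the highest cocaine pool by a factor of 1.45 in Basp1 and 1.25 in Pcdh8, while for Cdk5r2 the lowest saline pool exceeded Coc–Coc pool 1 by a factor of only 1.02. Kcng2, a modifier subunit of voltage-gated potassium channels, had ratios of -0.85 and -0.74, and Sprn, a prion-like protein, had -0.88 and -0.96.

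Vegfb, a ligand of the receptor Flt1, was at 833, 601 and 799 after saline, 499.6, 406 and 403 after 3 cocaine injections and 502, 408 and 530.0 after 15. Fancf, of the Fanconi anaemia core complex for repair of DNA crosslinks, was at 66.1, 84.01 and 60.5 after saline, 27.5, 26.9 and 42.2 after 3 cocaine injections and 38.7, 35.4 and 30.2 after 15. Saline pool 2 was low for Vegfb and high for Fancf. Otud1, a deubiquitinase, was at 223, 217 and 221 after saline, 148, 153 and 132 after 3 cocaine injections and 122, 116 and 122 after 15. It was 1 of the 2 members in which the cocaine groups did not overlap, with Coc–Coc the lower, and in the other, AABR07013843.1, Sal–Coc was the lower, with 63.3, 62.1 and 57.3 against 66.9, 72.6 and 70.7.

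**Figure D3:**
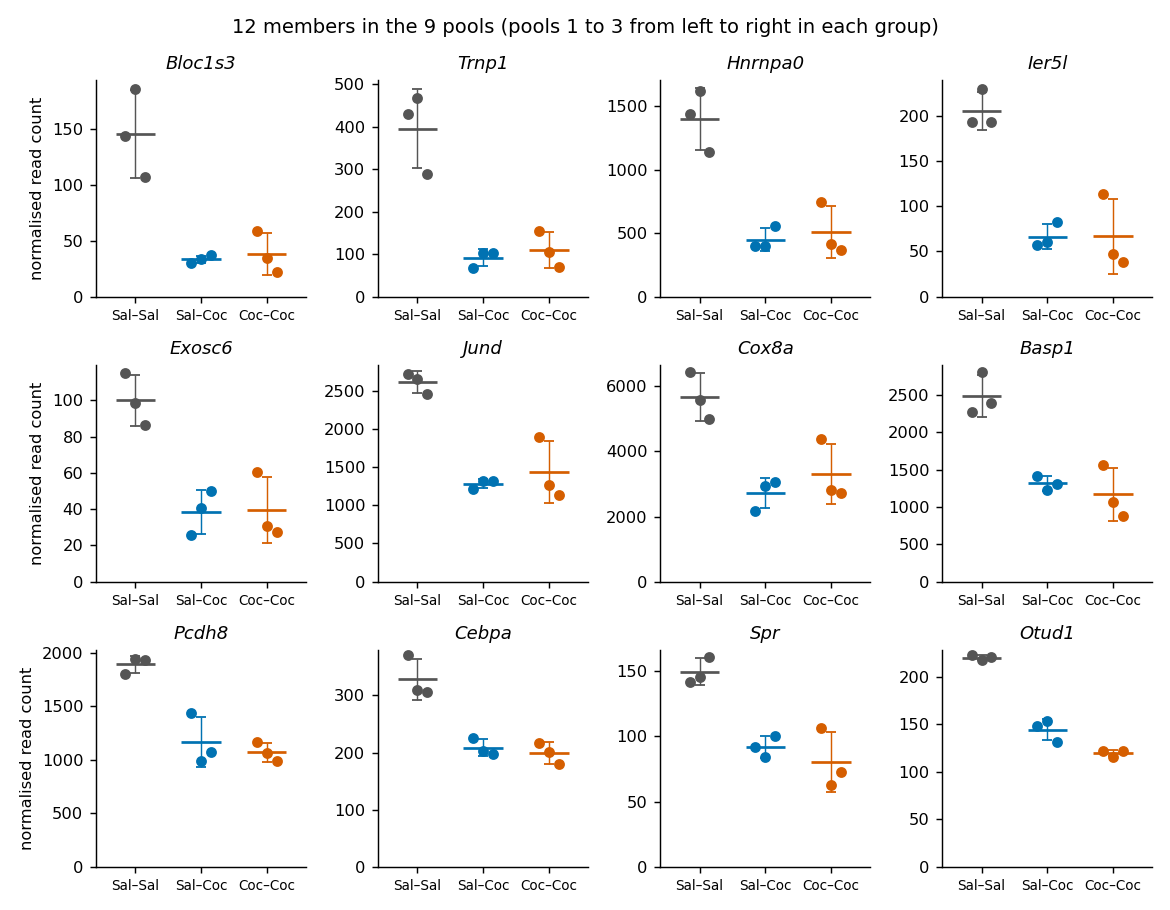
Normalised read count (vertical axis, from 0) of 12 members in the 3 pools of each group, with points for pools, a line for the group mean and bars for 1 SD. As the rule required, all saline pools lie above all cocaine pools in each panel. Coc–Coc pool 1 is the leftmost orange point, for example at 1895 for Jund.

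Several of the members with the lowest ratios have little described function. Ier5l, a relative of the immediate early gene Ier5, was at 194, 229.8 and 194 after saline, 56.8, 60.04 and 82.2 after 3 cocaine injections and 114, 47.2 and 38.7 after 15. RGD1560394, now Nicol1, was at 431, 441 and 378 after saline, 134, 127 and 139.5 after 3 cocaine injections and 213, 117 and 105 after 15. Fam43b was at 140.3, 195 and 144 after saline, 68.8, 48.6 and 49.7 after 3 cocaine injections and 70.02, 42.6 and 45.3 after 15. In all 3 the Coc–Coc pools other than pool 1 were at or below the level of the Sal–Coc pools.

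Cecr6, now Tmem121b, was at 228, 235 and 155 after saline, 47.7, 69.3 and 126 after 3 cocaine injections and 129.6, 78.9 and 88.6 after 15. Ankrd63, an ankyrin repeat protein, was at 1156, 1055 and 881 after saline, 348, 429.6 and 529.7 after 3 cocaine injections and 610.3, 439 and 480.0 after 15. Sowaha, also with ankyrin repeats, was at 2294, 1912 and 1544 after saline, 653, 866 and 1011 after 3 cocaine injections and 1187, 937 and 883 after 15. Each of these had its lowest value in Sal–Coc pool 1. LOC100910732, annotated as resembling the kinase Pak2, was at 88.1, 92.7 and 99.6 after saline, 30.2, 31.1 and 44.3 after 3 cocaine injections and 58.5, 42.6 and 28.3 after 15. The authors dropped reads with several alignments, so reads that fit both genes would be missing from its counts. Abhd8, a hydrolase-fold protein with the second highest normalised count, was at 7755, 6717 and 6231 after saline, 4422, 4664 and 4204 after 3 cocaine injections and 5355, 4263 and 3809 after 15, with ratios of -0.64 and -0.62.

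ENSRNOG00000048187, the unnamed gene with the lowest ratios, was at 139, 106 and 54.01 after saline, 8.3, 33.1 and 44.3 after 3 cocaine injections and 42.9, 26.3 and 23.6 after 15. Its saline pools spread over more than a doubling, and its lowest cocaine pool was Sal–Coc pool 1. The clone-named genes AABR07050321.2 and AABR07071395.1 had ratios of -1.45 and -1.44, and of -1.21 and -1.06.

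The limits of the rule cut through a continuous range. For the count limit of 40, Nupr1l lay inside with a mean of 45.5 and Ccdc177 outside with 38.0. On the Sal–Coc ratio, Otud1 was inside at -0.61 and C2cd4c outside at -0.59, and on the Coc–Coc ratio Aes was inside at -0.61 and Irf2bpl outside at -0.59. On the difference between the cocaine groups, Cecr6 was inside at 0.29 and Scand1 outside at 0.31.

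Other genes of the members' families were taken from gene lists, of which 18 held a member. These 18 lists name 173 genes, of which 39 had an identifier, 20 of them members. Since a gene had an identifier only if the study had listed it as changed in these libraries, these counts are selected and are no evidence of a direction. Of the 19 that were not members, edgeR called 9 lower and 8 higher in Sal–Coc, and 5 lower and 7 higher in Coc–Coc, at an adjusted p under 0.05. Of all genes tested, 10.6% were called higher in Sal–Coc and 7.13% in Coc–Coc. Both cocaine groups were set against the same saline pools.

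In some families the other named genes were lower as well. Cebpd and Cebpb, C/EBP factors that respond to cytokines and glucocorticoids, had edgeR log2 fold changes of -2.26 (adjusted p = 0.00477) and -1.44 (adjusted p = 0.0138) in Sal–Coc, and of -1.25 (adjusted p = 0.04) and -0.98 (adjusted p = 0.0602) in Coc–Coc. Marcksl1, a protein kinase C substrate at the membrane like Basp1, had edgeR values of -2.59 (adjusted p = 0.00403) and -1.78 (adjusted p = 0.0172). Pura had -1.26 (adjusted p = 0.00403) and -0.92 (adjusted p = 0.0168) by edgeR, and Purb -0.61 (adjusted p = 0.0137) and -0.37 (adjusted p = 0.0847). Beside Jund, the immediate early genes Jun and Egr4 had edgeR values of -0.63 (adjusted p = 0.0236) and -1.47 (adjusted p = 0.0368) in Sal–Coc, and of -0.29 (adjusted p = 0.222) and -1.08 (adjusted p = 0.107) in Coc–Coc. None of these passed the edgeR test between the cocaine groups, and neither did any other gene tested. The cytochrome c oxidase subunit Cox5a had -0.44 (adjusted p = 0.0057) and -0.52 (adjusted p = 0.0161) by edgeR, and Cox6a1 -0.48 (adjusted p = 0.0244) and -0.34 (adjusted p = 0.0853).

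In the exosome, VEGF, TLE and Fanconi lists, other named genes were higher while the member was lower. The exosome subunits Exosc1, Exosc8 and Exosc10 rose in Sal–Coc by edgeR log2 fold changes of 0.57 (adjusted p = 0.00573), 1.03 (adjusted p = 0.00403) and 0.62 (adjusted p = 0.00458). They rose in Coc–Coc by 0.46 (adjusted p = 0.0214), 0.64 (adjusted p = 0.023) and 0.50 (adjusted p = 0.0184) in the same edgeR fit, where Exosc6 fitted -1.37 and -1.33. Vegfa rose by 0.48 (edgeR adjusted p = 0.00637) and 0.39 (adjusted p = 0.0224) beside -0.76 and -0.63 for Vegfb. The corepressor Tle1 had 0.14 (edgeR adjusted p = 0.463) and 0.50 (adjusted p = 0.0333). Another corepressor, Tle2, rose by 0.92 (edgeR adjusted p = 0.00523) and 0.68 (adjusted p = 0.0238), and Fance by 0.65 (edgeR adjusted p = 0.00967) and 0.46 (adjusted p = 0.0441). Ddc, the decarboxylase that makes dopamine, had 0.79 (edgeR adjusted p = 0.0419) in Sal–Coc and 0.57 (adjusted p = 0.126) in Coc–Coc. In the list of Sdf2l1 the other named gene was lower, as the member was: Hspa5, the main chaperone of the endoplasmic reticulum, had -0.33 (edgeR adjusted p = 0.0724) and -0.46 (adjusted p = 0.0363).

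**Figure D4:**
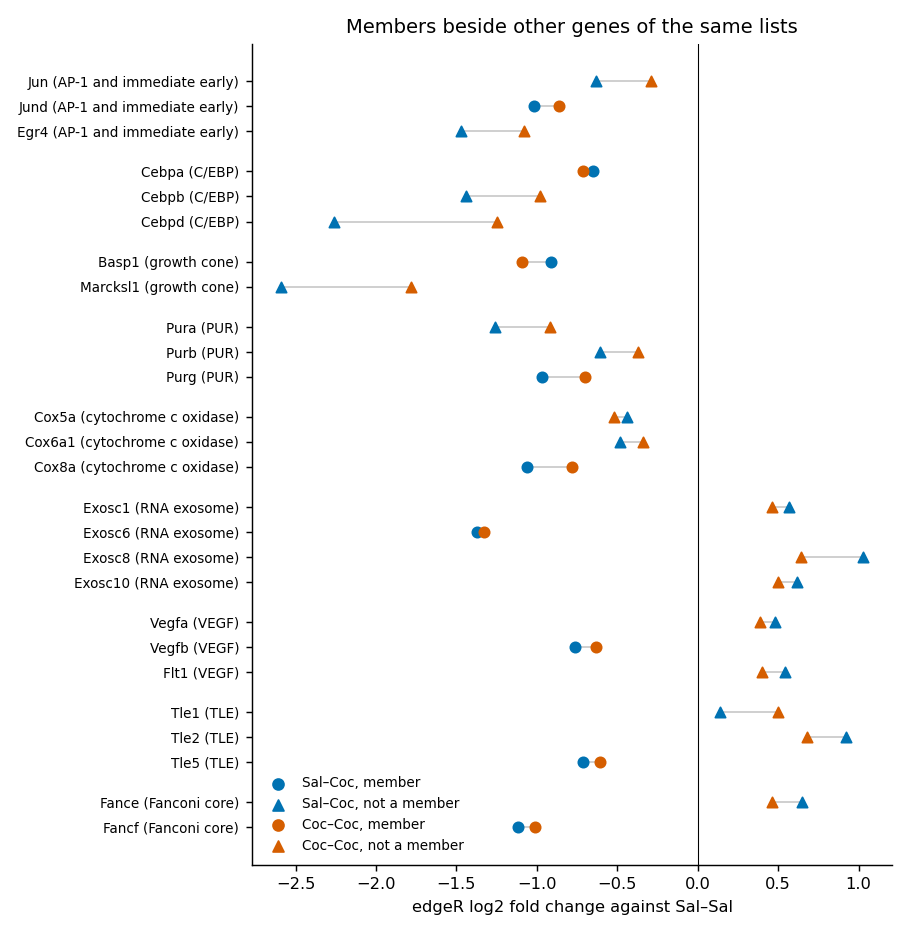
Log2 fold change from edgeR against Sal–Sal (horizontal axis) in Sal–Coc (blue) and Coc–Coc (orange) for members (circles) and other genes of the same list (triangles) with an identifier, 1 gene per row. Exosc6 sits at -1.37 and -1.33 beside 3 exosome genes above 0, and the C/EBP, PUR and growth cone genes shown lie below 0. Only some of the lists are plotted, and only genes that the study listed as changed have an identifier.

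The members were short in the genome. A span from first to last base was known for 62 of the 77 genes (80.5%), from the RefSeq annotation of the GRCr8 assembly, and its median was 3363 bp. All 23154 protein-coding genes, whether or not detected in this tissue, had a median of 15497 bp. A span under 3 kb was found in 30 of the 62 (48.4%) and in 18.6% of all protein-coding genes, and a span over 20 kb in 6 (9.68%) against 43.8%. Among other genes that the study listed as changed and that were lower in both cocaine groups, 338 had a span, with a median of 11302 bp and 21.6% under 3 kb. Among those higher in both, 944 had a span, with a median of 26836 bp and 1.91% under 3 kb. Of the genes raised alike, 221 (75.7%, below the 80% needed) had a span, with a median of 27935 bp and 3.17% under 3 kb. The 30 members under 3 kb had median log2 ratios of -0.96 in Sal–Coc and -0.84 in Coc–Coc, and the other 32 had -0.80 and -0.76. Examples of short members are Ier5l with 1592 bp, Jund with 1679 bp, Cox8a with 2322 bp and Bloc1s3 with 2381 bp, while Basp1 spans 47670 bp. Genes are not independent replicates, so these are given without a test. No 2 of the 62 members with a span were neighbours in the annotation, and the other members could not be placed.

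**Figure D5:**
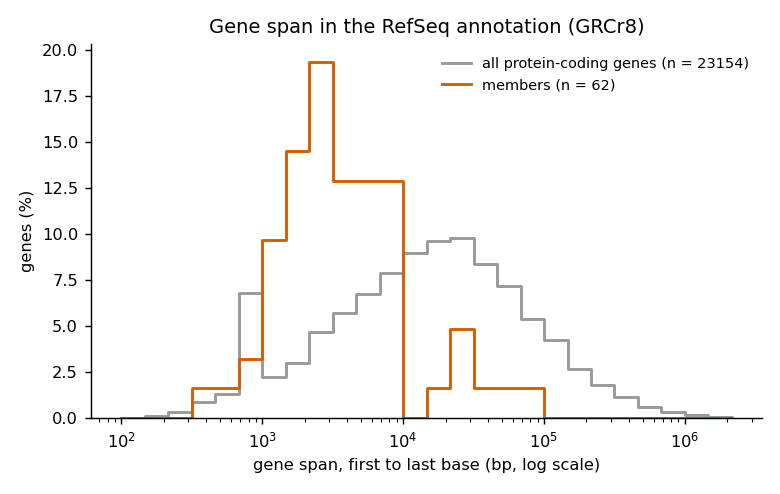
Percentage of genes (vertical axis) by gene span in bp (horizontal axis, log scale) for the 62 members with a known span (orange) and all 23154 protein-coding genes of the RefSeq annotation (grey). The members' median of 3363 bp lies below the median of 15497 bp over all genes.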

How the data were processed

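Poly(A)+ RNA from the nucleus accumbens of 9 pools in 3 groups was sequenced on a stranded kit, with 4 technical replicates per pool. Per the study's methods and the labels, the authors trimmed and filtered the reads, aligned them with STAR to the Ensembl rat genome, dropped reads with several alignments and counted reads per gene with HTSeq 0.5.3. The deposited values were raw read counts.

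Here the counts of the 36 tables were summed per pool and the rule was applied. For the family lists and counts of calls, edgeR 4.0.16 was fitted to all 9 pools (filterByExpr, TMM scaling, Benjamini-Hochberg adjusted p under 0.05), with DESeq2 1.42.0 and limma-voom (limma 3.58.1) as alternatives. The tables hold identifiers without names. Symbols were assigned by matching ratios of group means to 6 digits with the study's published gene lists, from which only symbols were taken, so only genes that the study called have names (69 of the 77). Current symbols, gene spans and promoters came from RefSeq tables (GRCr8), which held 62 of the 77, so 7 named genes had none. Values in all 9 pools were given only for certain members. These were among the 15 with the lowest ratios, the 8 with the highest mean, members of the lists and the 3 nearest each limit. Any other member could be named, with at most 2 genes lacking a symbol. Genes that were not members were named only from the lists or near a limit. Members and lists were chosen with earlier results of these data known.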

Additional observations from a re-analysis of the deposited data

How the results depend on the processing

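The rule found 77 genes with TMM, 90 with upper-quartile and 59 with total count scaling. With ratios of at most -0.8 it found 35, with at most -0.4 it found 199, and with the cocaine groups within 0.15 it found 48. Leaving out each pool gave 55 to 120 genes. The members called lower by edgeR ranged from 32 to 67 in Sal–Coc (main value 68) when each pool was left out. In Coc–Coc they ranged from 0 to 69 (main value 61). Between the cocaine groups, where the rule kept only small differences, 0 members were called in all 17 alternatives. Over all genes 0 were called there, except for 153 with DESeq2, 5 with no filter on low counts, 3 with technical replicate a alone and 1 without Sal–Coc pool 3. Pools share only a number. A fit with a replicate block for pool number called 60, 49 and 0 members, with 2084, 1126 and 0 genes called in all. Deviations of same-numbered pools correlated at a mean r of -0.0275 over 9 pairs, against 0.0151 over 18 other pairs. DESeq2 called 74, 73 and 0 members, with 3552, 2869 and 153 genes called in all, against 2572, 1702 and 0 for edgeR. Matching genes by GC content or by transcript length was not run, since neither was given for the genome build of the counts.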

Other observations

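The ribosomal protein, Frizzled and ZFP36 lists held no member. Of 31 ribosomal protein genes, 21 had an identifier, and edgeR called all 21 lower in Sal–Coc and none in Coc–Coc at an adjusted p under 0.05. Their log2 fold changes against Sal–Sal had a median of -0.46 in Sal–Coc, from -0.71 to -0.42, and of -0.29 in Coc–Coc, from -0.49 to -0.16. Of 10 Frizzled genes, which encode Wnt receptors, 5 had an identifier, and edgeR called Fzd1, Fzd2, Fzd3 and Fzd9 lower and Fzd6 higher in Sal–Coc and none in Coc–Coc. Zfp36, which destabilises AU-rich mRNAs, had an edgeR log2 fold change of 0.19 (adjusted p = 0.354) in Sal–Coc and of 0.59 (adjusted p = 0.0292) in Coc–Coc. These genes had identifiers only because the study had listed them as changed. Between the cocaine groups edgeR called none of them, nor any of the 15641 genes tested.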
